A study of Mus musculus with 12 samples.

Results

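Cohesin is a ring of proteins that holds sister chromatids together and folds chromosomes into loops. In dividing somatic cells the ring is built from the paired ATPase arms SMC1A and SMC3, the kleisin RAD21 that closes it, and a STAG protein, STAG1 or STAG2, bound to the kleisin. In germ cells entering meiosis, REC8 takes the place of RAD21, SMC1B that of SMC1A and STAG3 that of STAG1 and STAG2. The 8 genes of these subunits, 3 meiotic (Rec8, Stag3, Smc1b) and 5 mitotic (Smc1a, Smc3, Rad21, Stag1, Stag2), were followed here in murine jejunal enteroids. The set was selected on the read counts of Rec8, which lay far above control in the mutants, so the values of Rec8 are given as a description without a test, and the other subunits were added for their place in the complex. Rows were found for 7 of the 8 genes among the 18929 genes listed in the count tables, and Smc1b was not analysed here.

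The RNA-Seq data come from 12 libraries, 4 from control enteroids and 4 from each of the Hdac1- and Hdac2-deficient (below, depleted) enteroids, which are 3-dimensional cultures of intestinal epithelium grown from crypts. Control enteroids carried the villin-Cre transgene, which is active in the intestinal epithelium, and the mutants carried villin-Cre together with floxed Hdac1 or floxed Hdac2, genes of the class I histone deacetylases HDAC1 and HDAC2. All mice had a mixed C57BL/6J, 129SV and CD1 background, and all cultures were kept for 5 days in ENR medium. The methods name 1 mouse of each genotype as the source of crypts, so the genotype cannot be told apart from the mouse and its enteroid line, and p-values measure only the spread between these libraries. In this bulk RNA, fewer cells of a type and less RNA per cell cannot be told apart.

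The libraries held 20693200 to 30658628 counts, so that 3 counts, taken as the floor, equal 0.0979 to 0.145 CPM (counts scaled to a common library size), for counting error alone. Hdac1 stood at 90.5 ± 2.87 CPM in control and fell to 4.23 ± 0.841 CPM (SD, n = 4 each) in Hdac1-depleted enteroids. Hdac2 fell from 137 ± 4.39 to 75.9 ± 2.84 CPM (SD, n = 4 each) in Hdac2-depleted enteroids, a decrease of less than 2-fold. These counts cover the whole gene. The authors reported the deletion of each gene in its cultures by RT-PCR, Western blot and immunofluorescence, at the levels of RNA and protein. All 4 epithelial markers (Epcam, Cdh1, Krt8 and Krt20) were present, with a summed level of 3673 to 4834 CPM in the 12 libraries. The germ cell markers, of which 2 of 5 (Ddx4 and Sycp3) had rows, summed to at most 0.0840 CPM in control, 0.197 CPM in Hdac1-depleted and 0.0969 CPM in Hdac2-depleted enteroids. Fibroblast, endothelial, immune and smooth muscle markers each summed to at most 0.508 CPM in every library, and the 3 neural markers to at most 1.18 CPM.

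The promoter region of Rec8 is shown because Rec8 carries the largest change among the subunits. On GRCm38, Rec8 (ENSMUSG00000002324) lies on the plus strand at chr14:55618037-55625395, and Stag3 (ENSMUSG00000036928) on the plus strand at chr5:138280240-138312393. The stretch just before the first annotated exon of Rec8, in the RefSeq sequence of GRCm38.p6 at chr14:55617916-55618036 on the plus strand, reads 5′ to 3′:
Rec8: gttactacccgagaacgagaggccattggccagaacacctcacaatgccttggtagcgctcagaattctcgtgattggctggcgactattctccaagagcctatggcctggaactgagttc

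RefSeq windows of 250 bases before the start were found for 6 of the 8 subunits, all but Rad21 and Stag2. They were searched on both strands for TCCCGC, the core of the E2F site, whose reverse complement is GCGGGA, and for CACGTG, the E-box bound by MAX dimers, which is its own reverse complement. The E2F core was present in the windows of Rec8, Smc1b, Smc3 and Stag1, that is, in 2 meiotic and 2 mitotic subunits, and the E-box in that of Stag3 alone. Over all 32851 promoter windows, the E2F core was present in 16.9% and the E-box in 6.02%. A match is a description of the letters and not a measured binding site. The sites stand below with 10 bases on either side where the window allows, read 5′ to 3′ on the strand of the gene, with the motif in capitals. The start of the motif lay 38 bases before the RefSeq start in Rec8 (chr14:55618118-55618143, plus), 47 in Smc1b (chr15:85131989-85132014, minus), 116 in Smc3 (chr19:53600270-53600295, plus), 15 in Stag1 (chr9:100643423-100643447, plus) and 170 in Stag3 (chr5:138280329-138280354, plus). The RefSeq starts differ from the GENCODE gene starts, which are chr14:55618037 for Rec8, chr5:138280240 for Stag3 and chr9:100597798 for Stag1. By GENCODE, the sites of these 3 genes therefore lie inside the gene, and those of Smc1b and Smc3 before it. The stretch of Rec8 shown above ends before its E2F site.
Rec8: gtgcacctgaTCCCGCtggagggcga
Smc1b: aagaatttctTCCCGCgctttttttt
Smc3: taagagggccGCGGGAgaggggcctt
Stag1: aggccacgttTCCCGCgccgctgct
Stag3: cgctggagccCACGTGacaggactgc

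Of the kleisins followed here, Rec8 stood above and Rad21 below control in both mutants. Rec8, a meiotic kleisin, was represented by 4, 2, 0 and 1 reads in control libraries 1 to 4. In Hdac1-depleted enteroids it was represented by 884, 1098, 1067 and 1089 reads, and in Hdac2-depleted enteroids by 333, 234, 266 and 258 reads. Every mutant library lay far above every control library, and every Hdac1-depleted library above every Hdac2-depleted library.

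The level of Rec8 was 0.0616 ± 0.0563 CPM in control, 35.8 ± 2.71 CPM in Hdac1-depleted and 11.4 ± 1.65 CPM in Hdac2-depleted enteroids (SD, n = 4 each). Relative to library size, the summed reads stood at 578 times the control (95% counting interval 280 to 1439) in Hdac1-depleted enteroids. The same ratio was 179 (86.6 to 446) in Hdac2-depleted enteroids. The denominator of both ratios is 7 reads in 4 libraries, which sets the width of the intervals. Between the mutants, where both counts are high, the ratio was 3.23 (3.02 to 3.46). All 3 intervals cover counting error in the summed reads alone and leave out the spread between libraries. The fitted log2 fold change of Rec8 was 9.08 (SE 0.17) in Hdac1-depleted and 7.41 (SE 0.26) in Hdac2-depleted enteroids. These values lay above 99.98% and 99.94% of the protein-coding genes tested, a rank that follows from the choice of Rec8 for its rise.

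Rad21, the mitotic kleisin, decreased in both mutants. It stood at 388, 390, 399 and 385 CPM in control, 311, 317, 302 and 291 CPM in Hdac1-depleted and 307, 315, 310 and 305 CPM in Hdac2-depleted libraries. Neither mutant overlapped with control, while the mutants overlapped with each other. The log2 fold change was -0.34 (SE 0.03, adjusted p = 2.2e-08 by edgeR's quasi-likelihood test) in Hdac1-depleted and -0.33 (SE 0.03, adjusted p = 1.2e-09) in Hdac2-depleted enteroids. The level decreased by 21.2% and decreased by 20.4%, respectively.

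With these changes, Rec8 took 0.0159% ± 0.0145 of the reads of Rec8 plus Rad21 in control, 10.5% ± 1.02 in Hdac1-depleted and 3.55% ± 0.521 in Hdac2-depleted enteroids (SD, n = 4 each). Corrected for exon length, the shares were 0.0229%, 14.5% and 5.04%. Rad21 therefore remained the more abundant transcript of this pair in all 12 libraries.

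**Figure D1:**
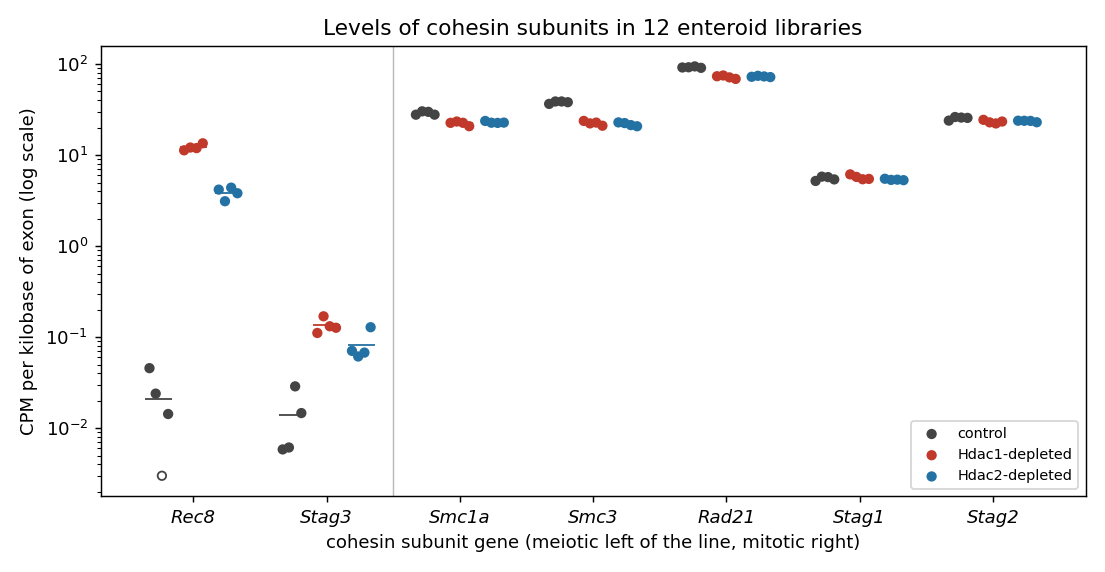
Level of 7 cohesin subunits in each library, in CPM per kilobase of exon on a log axis, with 1 point per library and a line at each group mean. The open point is the control library with 0 reads of Rec8, drawn at an arbitrary low position; Rec8 lies at 11.3 to 13.5 in Hdac1-depleted and 3.11 to 4.39 in Hdac2-depleted libraries, between the levels of Stag3 and Smc1a.

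Among the STAG subunits, the meiotic Stag3 increased from the floor to a low level, while the mitotic Stag1 and Stag2 stayed close to control. Stag3, which binds the REC8 form of the ring, was represented by 1, 1, 5 and 2 reads in control, 17, 30, 23 and 20 reads in Hdac1-depleted and 11, 9, 8 and 17 reads in Hdac2-depleted libraries. Both mutants lay above all control libraries, and the mutants overlapped with each other through Hdac2-depleted library 4. The level was 0.0795 ± 0.0617 CPM in control, 0.773 ± 0.142 CPM in Hdac1-depleted and 0.470 ± 0.179 CPM in Hdac2-depleted enteroids (SD, n = 4 each).

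Stag3 increased in Hdac1-depleted enteroids with a log2 fold change of 3.22 (SE 0.40, adjusted p = 6.1e-07 by edgeR's quasi-likelihood test), and the ratio of summed reads was 9.78 (95% counting interval 4.93 to 22.1). It passed edgeR's filter on low counts through the Hdac1-depleted libraries alone, and without the filter the values were 3.21 (SE 0.41, edgeR adjusted p = 2.5e-07). The log2 fold change rose to 3.89 without control library 3, which holds 5 of the 9 control reads. In Hdac2-depleted enteroids the ratio was 5.74 (2.77 to 13.4). There, Stag3 did not pass the filter and was not tested. Without the filter, the same 8 libraries gave a log2 fold change of 2.48 (SE 0.50, edgeR adjusted p = 0.00012). Even in Hdac1-depleted enteroids, Stag3 took only 0.298% ± 0.0600 of the STAG reads, against 0.0286% ± 0.0217 in control and 0.182% ± 0.0730 in Hdac2-depleted enteroids (SD, n = 4 each).

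Stag1, a mitotic STAG subunit, did not pass the test in either mutant. It stood at 61.3, 68.3, 67.5 and 63.7 CPM in control, 72.3, 67.9, 64.0 and 64.5 CPM in Hdac1-depleted and 64.8, 63.0, 63.3 and 62.5 CPM in Hdac2-depleted libraries, with overlap between all groups. Its log2 fold change was 0.05 (95% interval -0.04 to 0.15, edgeR adjusted p = 0.32) in Hdac1-depleted enteroids. In Hdac2-depleted enteroids it was -0.03 (-0.11 to 0.05, edgeR adjusted p = 0.51).

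Stag2, the more abundant mitotic STAG subunit, decreased slightly. It stood at 198, 217, 214 and 212 CPM in control, 202, 189, 184 and 193 CPM in Hdac1-depleted and 198, 197, 197 and 190 CPM in Hdac2-depleted libraries. Control library 1 lay next to the mutants, and the Hdac1-depleted group overlapped with control. The log2 fold change was -0.12 (SE 0.04, edgeR adjusted p = 0.0087) in Hdac1-depleted and -0.10 (SE 0.03, edgeR adjusted p = 0.013) in Hdac2-depleted enteroids. The level decreased by 7.79% and decreased by 6.47%, respectively.

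**Figure D2:**
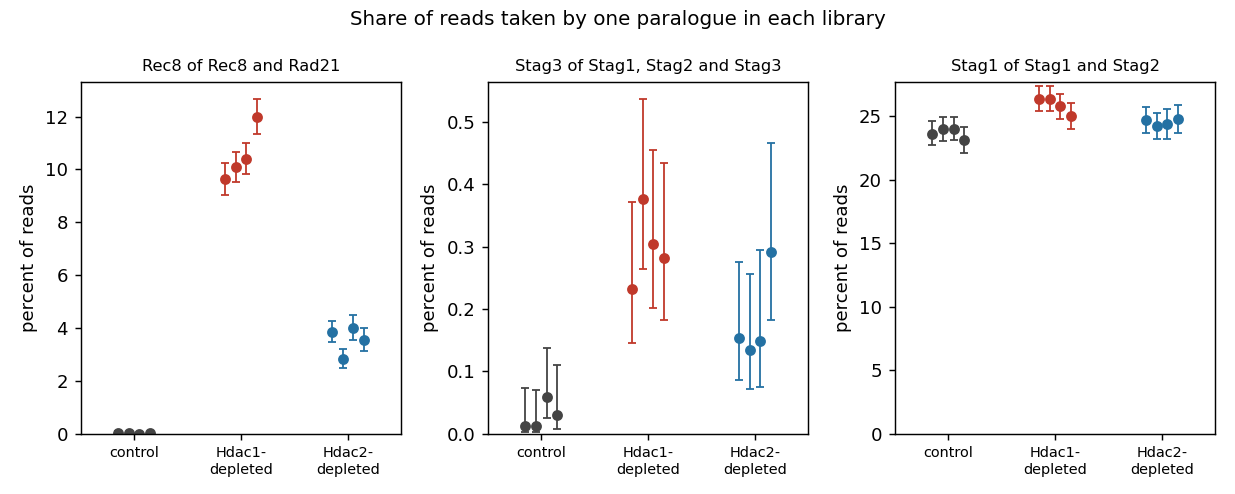
Share of reads, in percent, that 1 paralogue took of the paralogues followed here in each library, with 95% Wilson intervals for counting error. Rec8 made up 9.62% to 11.98% of Rec8 plus Rad21 reads in Hdac1-depleted and 2.82% to 4.00% in Hdac2-depleted libraries, and Stag3 stayed under 0.4% of STAG reads in all 12.

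Both SMC subunits decreased, Smc3 more than Smc1a. Smc3, whose acetylation locks the ring on DNA, stood at 202, 215, 215 and 211 CPM in control, 132, 124, 126 and 117 CPM in Hdac1-depleted and 127, 125, 118 and 115 CPM in Hdac2-depleted libraries. No mutant library came near the control range. The log2 fold change of Smc3 was -0.75 (SE 0.04, edgeR adjusted p = 9.8e-13) in Hdac1-depleted and -0.79 (SE 0.03, edgeR adjusted p = 3.5e-14) in Hdac2-depleted enteroids. Smc3 decreased by 40.5% and decreased by 42.2%, the largest changes among the 5 mitotic subunits in both mutants. This order did not hold relative to the median of each chromosome, as given below.

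Smc1a, the partner of SMC3 in the mitotic ring, stood at 160, 175, 172 and 161 CPM in control, 131, 135, 131 and 120 CPM in Hdac1-depleted and 137, 131, 130 and 131 CPM in Hdac2-depleted libraries. Again neither mutant overlapped with control. The log2 fold change was -0.36 (SE 0.04, edgeR adjusted p = 2.0e-07) in Hdac1-depleted and -0.33 (SE 0.03, edgeR adjusted p = 4.3e-08) in Hdac2-depleted enteroids.

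As a group, 4 of the 5 mitotic subunits passed the adjusted p as lower in each mutant, none was higher, and none changed by more than 2-fold. At the same threshold, 32.7% of the 14246 genes tested were higher and 31.9% lower in Hdac1-depleted enteroids, and 31.4% of the 14007 genes tested were higher and 30.9% lower in Hdac2-depleted enteroids. Libraries that did not overlap with control were also common, with 28.5% of genes higher and 30.1% lower in all 4 Hdac1-depleted libraries, and 27.9% higher and 28.3% lower in all 4 Hdac2-depleted libraries. With a fold change above 2 required as well, 6.87% of genes were called higher and 3.71% lower in Hdac1-depleted enteroids, and 5.45% and 2.84% in Hdac2-depleted enteroids. Under that rule, Rec8 and Stag3 were called higher in Hdac1-depleted and Rec8 in Hdac2-depleted enteroids, and Rec8 was called because the set was chosen for it. The median log2 fold change of the 5 mitotic subunits was -0.34 in Hdac1-depleted and -0.33 in Hdac2-depleted enteroids, beside -0.0040 and -0.0036 over all genes tested.

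Per kilobase of exon, the order of the subunits in control enteroids was Rad21 (92.3 ± 1.44 CPM per kilobase), Smc3 (38.1 ± 1.09), Smc1a (28.9 ± 1.31), Stag2 (25.4 ± 1.01) and Stag1 (5.54 ± 0.281), with no overlap between neighbours (SD, n = 4 each). Rec8 and Stag3 came last, at 0.0210 ± 0.0192 and 0.0139 ± 0.0108 CPM per kilobase, and overlapped with each other. In Hdac1-depleted enteroids, Rad21 remained first at 72.2 ± 2.72, and Stag2, Smc3 and Smc1a overlapped at 22.4 to 23.2 CPM per kilobase. There Rec8, at 12.2 ± 0.924 CPM per kilobase, stood above Stag1 at 5.70 ± 0.327, with no overlap. In Hdac2-depleted enteroids, Rec8 at 3.87 ± 0.561 CPM per kilobase stayed below Stag1 at 5.38 ± 0.0843, again with no overlap. Stag3 was the lowest in both mutants, at 0.135 ± 0.0247 and 0.0821 ± 0.0313 CPM per kilobase.

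The larger decrease of Smc3 stood beside a lower level of its whole chromosome. Smc3 lies on chromosome 19, where the median log2 fold change of 471 tested protein-coding genes was -0.53 in Hdac1-depleted enteroids and that of 461 genes was -0.52 in Hdac2-depleted enteroids. Relative to these medians, Smc3 differed by -0.22 and -0.27 on the log2 scale, and 21.4% and 16.9% of the genes of the chromosome had a lower value. Smc1a and Stag2 lie on the X chromosome, where the median was -0.02 and -0.04. Rad21 on chromosome 15, with medians of -0.05 and 0.12, and Stag1 on chromosome 9, with medians of 0.02 and 0.01, lie on chromosomes with smaller shifts. Relative to the median of its own chromosome, Smc1a differed by -0.34 and -0.29, and Rad21 by -0.29 and -0.45. Stag2 differed by -0.09 and -0.06, and Stag1 by 0.03 and -0.04. On this scale the largest decrease was that of Smc1a in Hdac1-depleted and of Rad21 in Hdac2-depleted enteroids, and not that of Smc3. The groups also differed in Xist, the RNA that coats the inactive X chromosome, at 1.41 to 1.72 CPM in control, 776 to 1078 CPM in Hdac1-depleted and 494 to 677 CPM in Hdac2-depleted libraries. The Y-linked genes Ddx3y, Kdm5d, Eif2s3y and Uty had no row for any group, and the labels do not give the sex of the mice. The part of the chromosome 19 shift or of the Xist difference in the levels of the subunits was not tested.

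**Figure D3:**
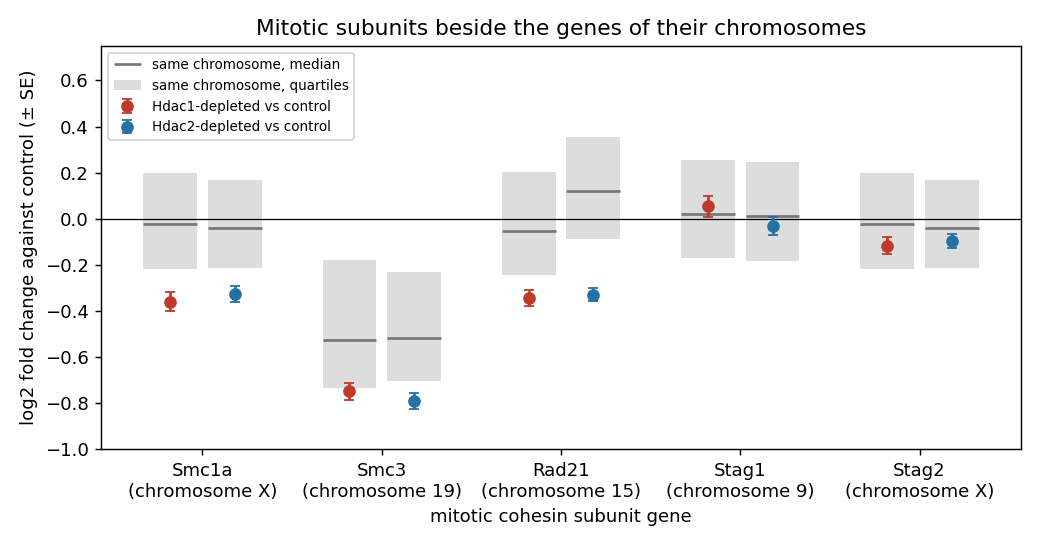
Log2 fold change against control (points, with SE) of the 5 mitotic subunits in both mutants, over the quartiles (grey box) and median (line) of the tested protein-coding genes on the same chromosome. Smc3 lies at -0.75 and -0.79 on a chromosome whose median is -0.53 and -0.52, while Smc1a and Rad21 lie below the lower quartile of chromosomes centred near 0.

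Ratios within a library do not depend on library size and show which subunits moved together, but they are not corrected for shifts of whole chromosomes. The ratios were chosen after the values had been seen, and 4 ratios in 3 comparisons gave 12 exact two-sided permutation tests, in which p = 0.029 is the smallest value that 4 against 4 libraries allow. Smc3 reads per Smc1a read fell from 1.27 ± 0.0359 in control to 0.966 ± 0.0383 in Hdac1-depleted and 0.916 ± 0.0320 in Hdac2-depleted enteroids (SD, n = 4 each). Smc3 per Rad21 fell likewise, from 0.540 ± 0.0137 to 0.408 ± 0.0154 and 0.392 ± 0.0160. All 4 of these differences reached the smallest exact permutation p of 0.029, or 0.049 after adjustment over the 12 tests. On the log2 scale they were -0.39 and -0.47 per Smc1a and -0.41 and -0.46 per Rad21. Smc3 lies on chromosome 19, where the median log2 fold change was -0.53 and -0.52. The part of that shift in these ratios was not tested.

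Rad21 per Smc1a stood at 2.34 ± 0.0842 in control, 2.37 ± 0.0478 in Hdac1-depleted and 2.34 ± 0.0716 in Hdac2-depleted enteroids, with exact permutation p of 0.66 and 0.89 against control (n = 4 each). Stag1 per Stag2 was 0.310 ± 0.00708 in control, 0.349 ± 0.0118 in Hdac1-depleted and 0.325 ± 0.00461 in Hdac2-depleted enteroids (SD, n = 4 each). All 3 groups differed from each other in this ratio, each with an exact permutation p of 0.029, or 0.049 after adjustment. This p is again the smallest possible, for a ratio chosen after the values had been seen. Stag2 lies on the X chromosome, and the part of the Xist difference in this ratio was not tested.

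**Figure D4:**
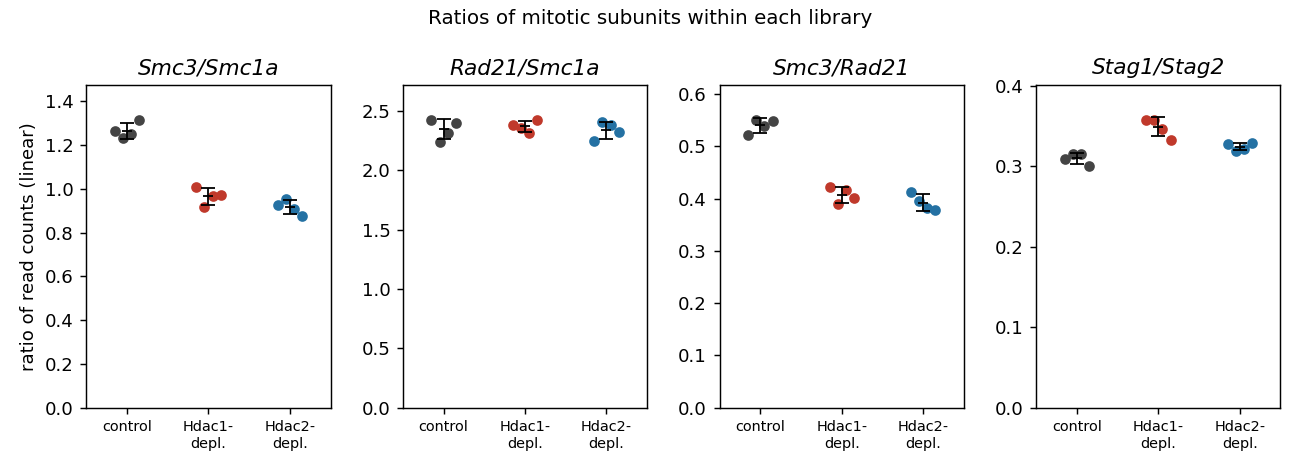
Ratio of read counts between mitotic subunits in each library, on linear axes from 0, with the mean and SD of 4 libraries per group in black. Smc3 per Smc1a and Smc3 per Rad21 are lower in all 8 mutant libraries than in any control library, Rad21 per Smc1a overlaps between groups, and Stag1 per Stag2 is highest in Hdac1-depleted libraries. Smc3 lies on chromosome 19, whose median is lower in both mutants.

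The mutants were compared directly in a fit of all 12 libraries, where 45.9% of 14510 genes differed at the adjusted p and 5.62% by more than 2-fold as well, and where 19.8% were higher in all 4 Hdac1-depleted than in any Hdac2-depleted library. The 5 mitotic subunits did not pass the test, with edgeR adjusted p from 0.11 to 0.69, although Stag1 passed with library size alone as the scaling (adjusted p = 0.039). The 95% intervals of the log2 difference, Hdac1-depleted minus Hdac2-depleted, were -0.11 to 0.04 for Smc1a, -0.04 to 0.12 for Smc3 and -0.08 to 0.05 for Rad21. For Stag1 and Stag2 they were -0.0044 to 0.17 and -0.09 to 0.05. The protein-coding genes of chromosome 15, which carries Rad21, had a median of -0.16 between the mutants. Rad21 stood 0.14 above that median. Rec8 was higher in Hdac1-depleted enteroids by 1.66 on the log2 scale (SE 0.08), given here without a test. Stag3 was higher by 0.73 (SE 0.29, edgeR adjusted p = 0.044), but the libraries overlapped and the adjusted p rose to 0.11 by DESeq2 and to 0.13 without Hdac1-depleted library 2. Stag3 did not pass the filter with control and Hdac2-depleted libraries alone, so it was tested here only through the Hdac1-depleted libraries, where it is highest.

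The factors that load, release and regulate the ring mostly followed the mitotic subunits. Of 22 such genes, all tested, 14 passed the adjusted p as lower and 1 as higher in Hdac1-depleted enteroids, and 17 as lower and 2 as higher in Hdac2-depleted enteroids, with median log2 fold changes of -0.19 and -0.26. Over all genes, as above, 31.9% and 30.9% were lower and 32.7% and 31.4% higher at this threshold in the 2 mutants. Pttg1, which encodes securin, the inhibitor of the protease that cuts the kleisin at anaphase, was the only one called at more than 2-fold. It fell by 1.48 on the log2 scale (SE 0.07, edgeR adjusted p = 9.8e-14) in Hdac2-depleted and by 0.34 (SE 0.06, edgeR adjusted p = 7.9e-05) in Hdac1-depleted enteroids.

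Other regulators are given for their role and were picked after the values had been seen. Cdca5, which encodes sororin, the protector of cohesion after replication, fell by 0.68 (SE 0.05) and 0.91 (SE 0.05) on the log2 scale in Hdac1- and Hdac2-depleted enteroids, and it too lies on chromosome 19. Wapl, the release factor, fell by 0.24 (SE 0.04) and 0.27 (SE 0.03). Of the loading complex, Mau2 rose by 0.23 (SE 0.05, edgeR adjusted p = 0.00066) and 0.11 (SE 0.04, edgeR adjusted p = 0.011), while Nipbl stood at -0.18 (SE 0.09, edgeR adjusted p = 0.11) and 0.10 (SE 0.09, edgeR adjusted p = 0.39). Hdac8, which encodes the deacetylase of SMC3, stood at -0.02 (SE 0.08) in both mutants, with edgeR adjusted p of 0.83 in each.

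The related condensin and SMC5/6 complexes compact chromosomes and repair DNA. Of their 14 genes, 11 passed the adjusted p as lower and none as higher in each mutant, with median log2 fold changes of -0.18 and -0.25, and none changed by more than 2-fold. For comparison, 31.9% and 30.9% of all genes were lower and 32.7% and 31.4% higher. Smc4, a condensin ATPase, fell by 0.33 (SE 0.03, edgeR adjusted p = 2.1e-08) in Hdac1-depleted and by 0.40 (SE 0.03, edgeR adjusted p = 3.4e-10) in Hdac2-depleted enteroids. Smc5, another gene on chromosome 19, fell by 0.58 (SE 0.05, edgeR adjusted p = 1.3e-08) and 0.75 (SE 0.06, edgeR adjusted p = 6.2e-10).

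Most of the listed genes of the cell cycle were lower as well. Of 18 proliferation genes, 15 passed the adjusted p as lower and 1 as higher in Hdac1-depleted enteroids, and 16 as lower and 1 as higher in Hdac2-depleted enteroids, with medians of -0.36 and -0.42 and none called at more than 2-fold, beside the 31.9% and 30.9% of all genes that were lower and the 32.7% and 31.4% that were higher. Ccna2, the S and G2 phase cyclin, fell by 0.48 (SE 0.03, edgeR adjusted p = 7.4e-11) and 0.53 (SE 0.03, edgeR adjusted p = 7.1e-13). Kif11, a spindle motor encoded on chromosome 19, fell by 0.70 (SE 0.04, edgeR adjusted p = 1.7e-11) and 0.87 (SE 0.04, edgeR adjusted p = 7.7e-13). Named after their values were seen, Pcna rose by 0.17 and 0.14, and Mki67 did not pass (edgeR adjusted p = 0.66 and 0.40). By BrdU pulse labelling of enteroids, the authors reported no significant change in proliferation in the mutants. The 3 intestinal stem cell markers (Lgr5, Olfm4 and Ascl2) summed to 2925 to 3120 CPM in control, 1560 to 1833 CPM in Hdac1-depleted and 1261 to 1429 CPM in Hdac2-depleted libraries. The 5 enterocyte markers summed to 5793 to 6073 CPM in control, 11291 to 13113 CPM in Hdac1-depleted and 8685 to 9823 CPM in Hdac2-depleted libraries. Paneth cell markers summed to 1253 to 1492 CPM in control and 1932 to 2145 CPM in the mutants. Their log2 fold changes ran from -0.63 to 1.26 (median -0.0031) in Hdac1-depleted and from 0.02 to 1.16 in Hdac2-depleted enteroids. Goblet cell markers summed to 510 to 541 CPM in control, 535 to 591 CPM in Hdac1-depleted and 844 to 861 CPM in Hdac2-depleted libraries. Their log2 fold changes ran from -0.40 to 1.22 and from 0.18 to 2.13. The Paneth and goblet sums thus hide markers that fell in Hdac1-depleted enteroids. The general epithelial markers were also higher in Hdac2-depleted libraries, at 4664 to 4834 CPM against 3673 to 3830 CPM in control and 3873 to 3948 CPM in Hdac1-depleted libraries. The part of these shifts in the decrease of the mitotic subunits was not tested.

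Most other meiotic genes that could be tested were not higher in the mutants. Of 40 meiotic prophase genes, 26 had rows and 14 were tested in Hdac1-depleted enteroids, where 1 passed the adjusted p as higher and 7 as lower (median log2 fold change -0.16), beside 32.7% and 31.9% of all genes. In Hdac2-depleted enteroids 12 were tested, 2 passed as higher and 6 as lower, beside 31.4% and 30.9% of all genes, and the median was -0.14. Tex12, which encodes a central element protein of the synaptonemal complex, rose from 0.0426 CPM in control to 0.964 CPM in Hdac1-depleted enteroids, with a log2 fold change of 4.31 (SE 0.44, edgeR adjusted p = 4.5e-08). Like Stag3, it passed the filter only through the libraries in which it was high, and without the filter the values were 4.30 (SE 0.44, edgeR adjusted p = 8.0e-09). In Hdac2-depleted enteroids, Tex12 at 0.343 CPM did not pass the filter, without which its log2 fold change was 2.85 (SE 0.61, edgeR adjusted p = 0.00021). The other 12 of the 26 genes with rows were too low to be tested in Hdac1-depleted enteroids, so the counts cover only those that passed the filter. Syce2, the binding partner of TEX12 in the central element, moved the other way, falling by 1.13 (SE 0.07, edgeR adjusted p = 8.8e-12) and 0.96 (SE 0.06, edgeR adjusted p = 3.2e-11) from 22.2 CPM in control.

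Of 26 germline identity genes, 8 had rows and 4 were tested in each mutant, with 1 higher and 2 lower at the adjusted p in both (all genes: 32.7% higher and 31.9% lower, and 31.4% higher and 30.9% lower). Piwil2, which encodes a piRNA-binding protein of germ cells, rose by 1.65 (SE 0.20, edgeR adjusted p = 6.0e-07) in Hdac1-depleted and by 0.78 (SE 0.23, edgeR adjusted p = 0.0056) in Hdac2-depleted enteroids, from 0.761 CPM in control. Factors that keep germline genes silent in somatic cells were also listed. Of 20 such genes, 2 passed as higher and 9 as lower in Hdac1-depleted enteroids, and 2 as higher and 13 as lower in Hdac2-depleted enteroids, with medians of -0.04 and -0.19 and none called at more than 2-fold. The shares over all genes were 32.7% higher and 31.9% lower, and 31.4% higher and 30.9% lower. Pcgf6, a Polycomb subunit that works with MAX and MGA, fell by 0.69 (SE 0.04, edgeR adjusted p = 2.0e-11) and 0.88 (SE 0.04, edgeR adjusted p = 3.1e-13), and it lies on chromosome 19. Dnmt1, the maintenance DNA methyltransferase, fell by 0.38 (SE 0.04, edgeR adjusted p = 2.4e-07) and 0.46 (SE 0.04, edgeR adjusted p = 3.7e-09).

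Of 26 tested genes that start within 250 kb of Rec8, 2 were called higher and 1 lower in Hdac1-depleted enteroids (median log2 fold change 0.15), beside 6.87% and 3.71% of all genes. At the adjusted p alone, 13 were higher and 6 lower, beside 32.7% and 31.9% of all genes. Tgm1, an epithelial transglutaminase, rose by 3.89 (SE 0.54) from 0.0524 CPM and passed the filter only through the mutant libraries. Ltb4r2, a leukotriene receptor, rose by 1.11 (SE 0.14), and Pck2, the mitochondrial PEP carboxykinase, fell by 1.20 (SE 0.05). In Hdac2-depleted enteroids, Ltb4r1 (1.06, SE 0.17) and Adcy4 (1.03, SE 0.23) were called higher of 25 genes and none lower, beside 5.45% and 2.84% of all genes, and the median was 0.13. At the adjusted p alone, 13 of these were higher and 4 lower, beside 31.4% and 30.9% of all genes. The nearest tested genes on either side, Irf9 and Ipo4, which were named after their values were seen, changed by 0.63 and -0.15 on the log2 scale in Hdac1-depleted and 0.83 and -0.19 in Hdac2-depleted enteroids.

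Near Stag3, 1 of 15 tested genes was called higher in each mutant, a share close to the 6.87% and 5.45% of all genes. It was Gpc2, a glypican gene whose start lies 0.235 kb from that of Stag3 on the opposite strand. Gpc2 rose by 2.08 (SE 0.28, edgeR adjusted p = 1.6e-06) in Hdac1-depleted and by 2.02 (SE 0.31, edgeR adjusted p = 1.0e-05) in Hdac2-depleted enteroids, from 0.398 CPM in control. The exons of Rec8 and Stag3 shared no bases with those of another annotated gene. None of the 7 tested genes within 250 kb of Smc1b was called in either mutant, too few genes to differ from the shares over all genes. Those shares were 6.87% higher and 3.71% lower in Hdac1-depleted and 5.45% and 2.84% in Hdac2-depleted enteroids. At the adjusted p alone, 2 were higher and 3 lower, and 2 higher and 1 lower. The shares over all genes were 32.7% and 31.9%, and 31.4% and 30.9%.

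**Figure D5:**
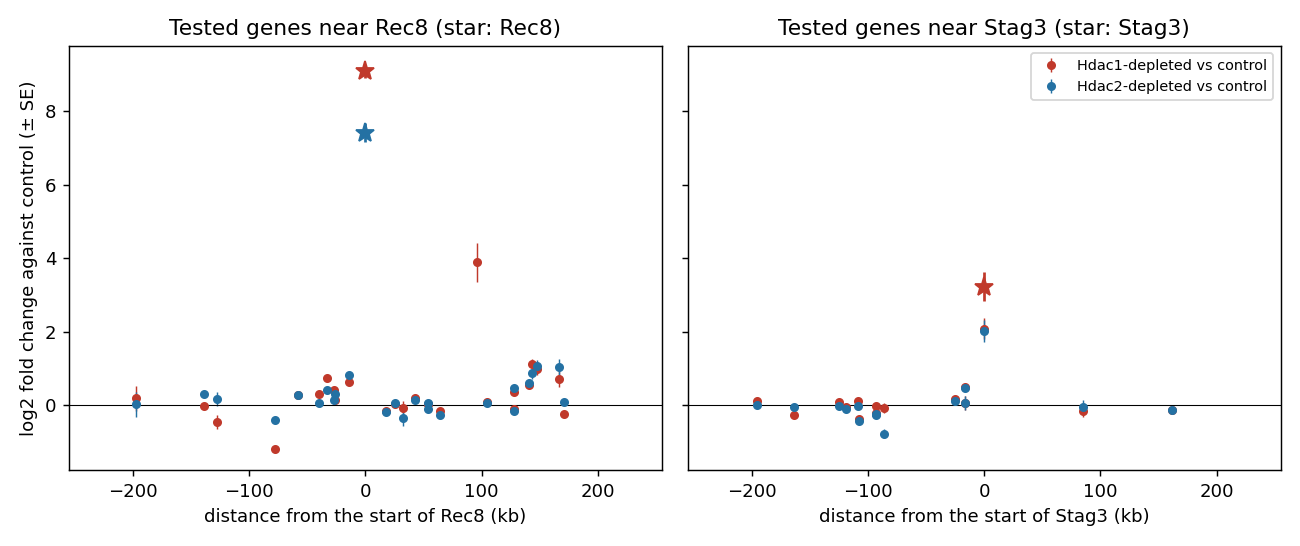
Log2 fold change against control (with SE) of tested genes by the distance of their start from that of Rec8 or Stag3, in kb, with the subunit itself as a star at 0. Rec8 stands at 9.08 and 7.41 among 26 and 25 neighbours whose medians are 0.15 and 0.13, and next to Stag3 only Gpc2, 0.235 kb away, rises above 2 in both mutants.

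Across the 12 libraries, the genes most like Rec8 in log2 CPM were Ppap2a, Slc43a2, Reg3b, Dgat2 and Daglb, with Pearson's r from 0.995 to 0.996 among 14510 genes. Reg3b, an antimicrobial lectin of the gut, stood at 13.2 ± 2.49 CPM in control, 301 ± 12.1 CPM in Hdac1-depleted and 124 ± 7.67 CPM in Hdac2-depleted enteroids (SD, n = 4 each). Those most like Stag3 were Mafk, Gpr157, Cant1, Ly75 and 2610524H06Rik, with r from 0.968 to 0.974. The 12 points fall into 3 groups, so these values describe the order of the groups.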

How the data were processed

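RNA-Seq of poly(A) RNA was performed on 12 enteroid libraries, grouped by their labels, with paired reads of 100 bases. The authors aligned reads with STAR (2.4.0f1 in the submitters' processing notes) to GRCm38; the counting program is not given in the sources used here. The authors deposited, for each mutant with the 4 controls, raw counts of reads per gene, listing genes whose counts sum to at least 10. The deposited normalized scores (the count times 1 factor per library, rounded), and the deposited log fold changes, average log CPM and p-values of DESeq and edgeR, were not used.

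Counts were tested with edgeR 4.0.16 (R 4.3.3; quasi-likelihood F test, TMM, filterByExpr, Benjamini-Hochberg over all tested genes). A call needed an adjusted p no greater than 0.05 with an absolute log2 fold change above 1, the thresholds of the study's methods, and also counted at the adjusted p alone. Each mutant was fitted with control (14246 and 14007 genes), and the mutants were compared in a fit of 12 libraries (14510 genes). The SE was taken as the log2 fold change over the root of F. CPM used TMM factors of 12 libraries. Depth was 20693200 to 30658628 counts, with a common coefficient of biological variation of 0.0384 to 0.0425.

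Positions and exon lengths came from GENCODE M21 (GRCm38), promoter windows from RefSeq (GRCm38.p6); protein sequences were not used here. The members and lists were chosen with earlier results of these data known. From each list, the text names up to 4 called genes with the largest change or, if none was called, the 2 with the smallest adjusted p; in addition, called neighbours within 250 kb and the 5 genes of highest r with log2 CPM (prior count 2). Exceptions are marked. Alternatives were DESeq2 1.42.0, relative log expression factors, library size alone, no filter, a mean count of 10 or more, the replicate block, no fold limit, 12 libraries in 1 fit and each library left out. On simulated counts for the 3 comparisons, over 12925, 12724 and 12853 genes, edgeR called 100% of 4-fold changes, passed 90%, 93% and 92% of 1.5-fold changes and called 0 unchanged genes. The simulation used only genes of higher mean count, with the same spread for every gene. It does not cover genes as low as Stag3 and Tex12, or genes with almost no reads in control, such as Rec8. No 2 libraries of a group agreed within counting noise (chi-square over degrees of freedom 1.56 to 8.99).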

Additional observations from a re-analysis of the deposited data

Results flagged for a closer look

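In 3 of 21 sets of 4 libraries (7 subunits in 3 groups), 1 library stood apart from its group by Dixon's test, where chance gives about 1 in 20. All 3 were in the Hdac2-depleted group: library 4 for Stag3 at 0.737 CPM, library 1 for Smc1a at 137 CPM and library 4 for Stag2 at 190 CPM.

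The mutants differed from each other, Hdac1-depleted minus Hdac2-depleted on the log2 scale by edgeR in the fit of 12 libraries, for Pttg1 by 1.14 (7.7e-13), Tex12 by 1.43 (0.00038) and Piwil2 by 0.87 (0.00042). Tex12 and Stag3 did not pass the filter with control and Hdac2-depleted libraries alone. They were thus tested here only through the Hdac1-depleted libraries, where they are highest. Over 6 other settings, no filter among them, the edgeR or DESeq2 adjusted p of Tex12 ran from 0.00019 to 0.00088. Stag3 differed by 0.73 (edgeR adjusted p = 0.044), but its libraries overlapped and the adjusted p was above 0.05 in 10 of 18 alternatives, among them DESeq2 (0.11) and the replicate block (0.054). Smaller differences were found for Smc5 at 0.16 (edgeR adjusted p = 0.014), Pcgf6 at 0.18 (0.0017) and Kif11 at 0.17 (0.0019). The log2 ratio of Stag1 to Stag2, chosen after the values had been seen, differed by 0.11 (exact permutation p = 0.029, the smallest possible, adjusted 0.049, higher in 4 of 4 Hdac1-depleted libraries).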

How the results depend on the processing

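The 4 decreased mitotic subunits and Stag3 in Hdac1-depleted enteroids kept their direction and side of the threshold under all 15 alternatives tried, and Stag1 did not pass the adjusted p against control under any of them, but did between the mutants with library size alone (0.039). Stag3 ran from 2.96 to 3.89 in Hdac1-depleted enteroids as libraries were left out. With no filter on low counts, 1581 genes were called higher in Hdac1-depleted and 1170 higher and 622 lower in Hdac2-depleted enteroids, since more genes were tested. With no limit on the fold change, 4656 genes were higher and 4540 lower in Hdac1-depleted, 4402 and 4327 in Hdac2-depleted enteroids, and 3229 and 3437 between the mutants, with 4 cohesin members lower in each mutant and 2 higher between the mutants. In Hdac2-depleted enteroids, 2 members instead of 1 were called higher with all 12 libraries in 1 fit or no filter, and 1 to 2 when a library was left out, 2 without control library 4 or Hdac2-depleted library 2, because Stag3 then passed the filter. Each of these counts of higher members includes Rec8, for which the set was chosen.

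Stag3 between the mutants was past the adjusted p of 0.05 in 8 of 18 alternatives. It missed it by DESeq2 (0.11), without the filter (0.057) and without Hdac1-depleted library 2, 3 or 4, Hdac2-depleted library 1, 2 or 3, or control library 4, with differences of 0.60 to 1.02 over the libraries left out. Called members between the mutants numbered 1 to 2, with 2 without Hdac2-depleted library 4. These counts include Rec8, for which the set was chosen and which is given without a test. Rec8 moved with single control libraries, from 8.65 to 9.79 in Hdac1-depleted and 6.98 to 8.11 in Hdac2-depleted enteroids, the lower values without control library 3 and the higher without control library 1, since the control holds 7 reads.

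Signs near 0 are not stable. Between the mutants, library size alone gave 0.011 for Rad21 and 0.0047 for Stag2, and leaving out single libraries gave -0.027 to 0.0080 for Rad21. The log2 ratio of Rad21 to Smc1a against control ran from -0.0059 to 0.032 in Hdac1-depleted and from -0.027 to 0.015 in Hdac2-depleted enteroids. Same-numbered libraries had correlations of -0.045 to 0.091, so the numbers are not taken to pair them. With the replicate block, 978 genes were called higher and 523 lower in Hdac1-depleted, 763 and 395 in Hdac2-depleted enteroids, 393 and 419 between the mutants, and Stag3 between the mutants had an adjusted p of 0.054, the 1 member call that changed. Against the median of chromosome 19, chosen after seeing the data, Smc3 differed by -0.22 and -0.27. Smc1a and Rad21 lay further below the medians of their own chromosomes in both mutants. Depth limits Rec8 in control and Stag3 in all groups, which rest on 0 to 30 reads per library.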
